A study of Mus musculus with 4 samples.

Results

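The genes described here encode 9 core components of the Hedgehog signalling pathway: the ligands Shh and Ihh, the receptor Ptch1, the ligand-binding antagonist Hhip, the membrane transducer Smo, the inhibitor Sufu, and the transcription factors Gli1, Gli2 and Gli3. Binding of p63, a transcription factor needed to form and maintain stratified epithelia, was read at them by chromatin immunoprecipitation and sequencing (ChIP-seq) of epidermis from mouse dorsal skin at postnatal day 0. The alphaKO group was epidermis of the p63 alphaKO genotype and the WT group epidermis of wild-type mice, each precipitated with the p63 antibody EPR570. Each genotype had 1 ChIP library, so there was no replicate spread and no difference between genotypes was tested. The sources used here give no strain, sex, number of pooled animals or exact allele behind the alphaKO label. Of the 4 samples, the 2 input libraries were not analysed here. A peak belonged to a gene when its summit, the position of highest coverage, lay in the gene body or within 50 kb of it. By this rule 25 of the 14593 alphaKO peaks and 18 of the 10616 WT peaks belonged to the 9 genes, of 21887 protein-coding genes in all.

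In Hedgehog signalling, a secreted ligand binds Ptch1, which otherwise holds Smo inactive. Active Smo relieves the block that Sufu places on the Gli proteins, which then switch on target genes, among them Gli1, Ptch1 and Hhip, so that the pathway restrains itself. Gli2 acts mainly as an activator and Gli3 mainly as a repressor. In skin, Shh from the epithelium of the forming hair follicle drives growth of the follicle, and excess pathway activity in keratinocytes causes basal cell carcinoma.

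Each peak carries a fold enrichment, the authors' own ratio of the coverage at the summit to the local background estimated by the peak caller. A fold ranks a peak within its own list. Folds of the alphaKO list are given next to those of the WT list to describe each site, and they do not measure a change between genotypes. A peak had a partner when it shared at least 1 bp with a peak of the other list.

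p63 peaks lay around 8 of the 9 genes in alphaKO and around 7 of the 9 in WT. The same kind of window held a summit for 55.1% of all protein-coding genes in the alphaKO list and for 47.1% in the WT list. Ihh, a ligand best known from the growth plate, had a peak in neither list, as had 38.8% of all protein-coding genes. Shh had a peak in the alphaKO list alone, as had 14.1% of all protein-coding genes. The other 7 genes had peaks in both lists, as had 41.0% of all protein-coding genes, and none of the 9 had a peak in the WT list alone, as had 6.14%. The windows of the 9 genes spanned 106 to 366 kb, where the median window of all genes was 117 kb, and a longer window catches more peaks. Per 100 kb of window, the 9 genes together had 1.48 alphaKO peaks and 1.07 WT peaks, and the windows of all protein-coding genes had 0.701 alphaKO peaks and 0.536 WT peaks. The pooled value does not hold for each gene. Densities ran from 0 at Ihh to 2.81 at Gli2 in alphaKO, and from 0 at Shh and Ihh to 2.38 at Smo in WT. In WT, Hhip (0.520), Sufu (0.521) and Gli3 (0.546) were near the value of all windows. Gli2 alone held 9 alphaKO and 7 WT peaks. The alphaKO list is the longer, and the order of the genotypes rested on that: with the alphaKO list reduced to the length of the WT list, the 9 genes had 17 alphaKO and 18 WT peaks, or 1.01 in alphaKO and 1.07 in WT per 100 kb, and 7 genes had a peak in each list. A gene with no peak can still hold a site below the threshold of the list.

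**Figure D1:**
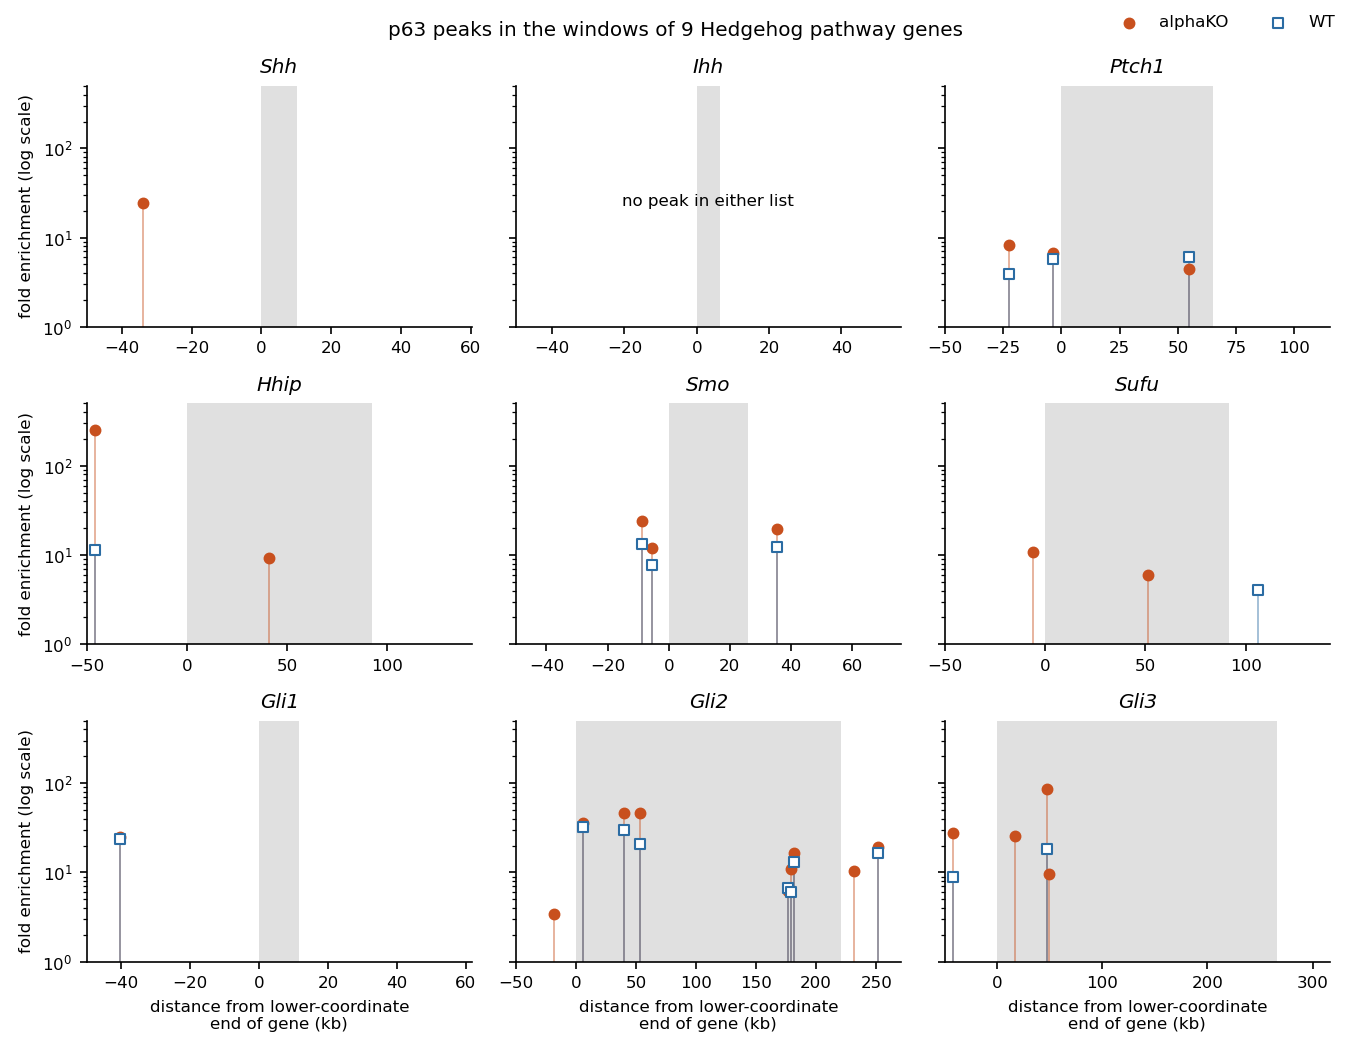
Fold enrichment (log axis) of each p63 peak against the distance in kb of its summit from the lower-coordinate end of the gene, for the 9 genes, with alphaKO as filled circles and WT as open squares, and the gene body shaded. The peaks are densest in and around Gli2, the highest point is the alphaKO peak outside Hhip with a fold of 251, and the Ihh window is empty.

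The peaks at Hedgehog genes were mostly sites listed in both genotypes. Of the 25 alphaKO peaks, 17 had a WT partner (68.0%, 95% Wilson interval 48.4 to 82.8), where the share in the whole alphaKO list was 48.4%. Of the 18 WT peaks, 17 had an alphaKO partner (94.4%, 74.2 to 99.0), where the share in the whole WT list was 66.6%. With lists of equal length the shares were 76.5% of the alphaKO peaks and 72.2% of the WT peaks, so the order of the genotypes turned. Both shares count the same paired sites, so their order follows from the counts of 17 alphaKO and 18 WT peaks. The shares over the whole lists at equal length were not computed. These intervals cover counting error only, and neighbouring peaks of a gene are not independent. Between the lists, the summits of the 17 paired sites were separated by a median of 11 bp, with 16 of the 17 pairs within 50 bp. The median for all 7054 paired sites was 8 bp.

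The 25 alphaKO peaks had a median fold of 16.6, from 3.45 to 251, beside a median of 15.5 over the alphaKO list. The 18 WT peaks had a median fold of 11.9, from 3.87 to 32.6, beside a median of 8.44 over the WT list. Of these, 13 of the 25 alphaKO peaks and 11 of the 18 WT peaks exceeded the median of their list. At 15 of the 17 paired sites (88.2%) the fold was the higher in the alphaKO list, and over all paired sites this held for 83.7%, so the share at Hedgehog genes was near that of the lists at large. The recovered local background of these peaks lay between 4.36 and 10.2 in alphaKO and between 4.22 and 11.4 in WT, with list medians of 5.81 in alphaKO and 8.31 in WT.

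**Figure D2:**
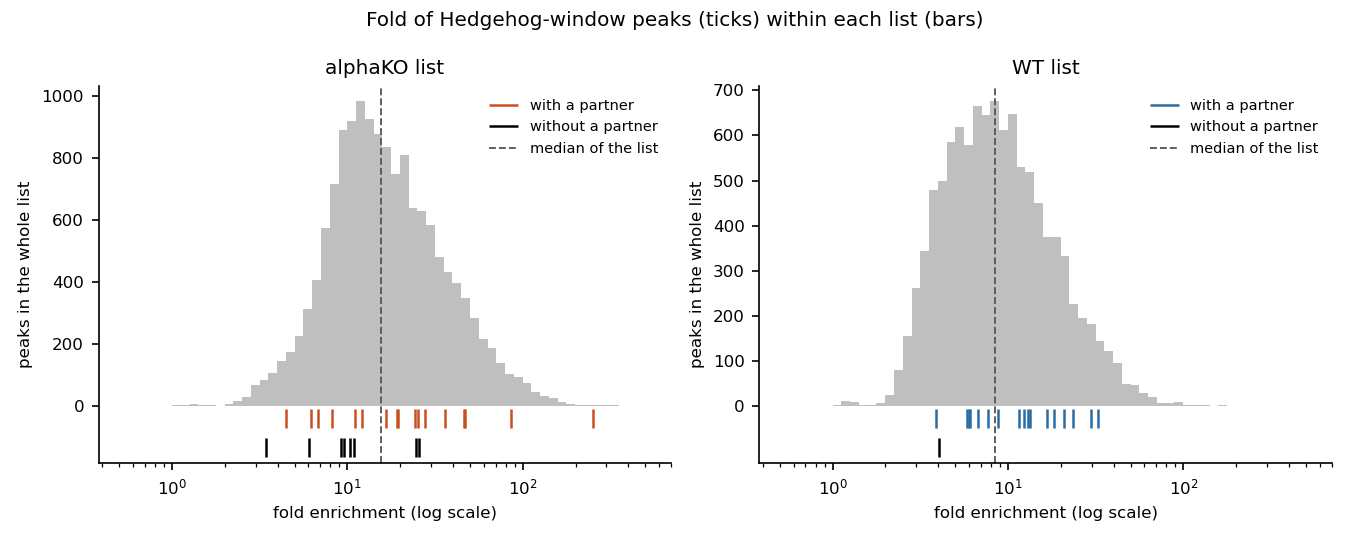
Number of peaks of each whole list (grey bars) by fold enrichment on a log axis, alphaKO left and WT right, with ticks below for the 25 alphaKO and 18 WT peaks at Hedgehog genes, coloured where a peak had a partner and black where it had none. The black ticks sit at folds of 3.45 to 25.7 in alphaKO and at 4.03 in WT, and the Hhip tick at 251 is in the upper tail of the alphaKO list.

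None of these peaks covered a listed transcription start of a Hedgehog gene. RefSeq promoter windows (GRCm38.p6, the assembly that mm10 names, 250 bases before to 50 after a start) were matched for 7 of the 9 genes: Ihh, Ptch1, Hhip, Smo, Sufu, Gli2 and Gli3. No summit lay within 1 kb of these starts in either list. The nearest was at Ptch1, where summits lay 2.62 kb (alphaKO) and 2.58 kb (WT) inside the gene from the listed start. That start is itself inside the gene, since its window ends at 63565985 and the gene, on the minus strand, reaches to 63573460. The sole listed promoter windows met by any of the peaks belonged to Mbd6, a neighbour of Gli1. The Ptch1 promoter is shown because it is the start closest to a p63 summit among the Hedgehog genes, and an Mbd6 promoter because peaks of both lists met it. Capitals mark a loose pattern with the spacing of p53-family sites, which is CNNG, any 6 bases and CNNG again, searched on both strands with overlapping matches allowed.

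Ptch1 promoter, chr13:63565686-63565985, minus strand: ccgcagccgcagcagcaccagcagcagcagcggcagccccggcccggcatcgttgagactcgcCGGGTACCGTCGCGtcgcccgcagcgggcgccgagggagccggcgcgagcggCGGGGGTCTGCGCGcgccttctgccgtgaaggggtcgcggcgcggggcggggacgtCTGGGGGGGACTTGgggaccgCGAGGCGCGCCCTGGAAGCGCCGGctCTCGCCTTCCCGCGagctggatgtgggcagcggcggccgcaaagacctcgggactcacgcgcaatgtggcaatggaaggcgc
Mbd6 promoter, chr10:127288969-127289268, minus strand: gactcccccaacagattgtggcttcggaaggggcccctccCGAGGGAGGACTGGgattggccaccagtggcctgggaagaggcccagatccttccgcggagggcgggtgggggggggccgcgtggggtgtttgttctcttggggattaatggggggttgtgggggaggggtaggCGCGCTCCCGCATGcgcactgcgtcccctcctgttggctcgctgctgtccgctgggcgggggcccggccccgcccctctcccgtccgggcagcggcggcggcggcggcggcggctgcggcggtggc

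The pattern matched 6 times in the Ptch1 window and 2 times in this Mbd6 window. It is loose: 70.2% of the 32851 promoter windows in the table hold it, so a match describes these letters and no site. The stricter form with CATG in place of each CNNG, held by 0.712% of the windows, and the Gli pattern TGGGTGGTC, held by 0.253%, matched in none of the promoters of the 7 genes or in the shown Mbd6 window on either strand. The sequences under the peaks themselves were not analysed here.

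Of the ligands Shh and Ihh, Shh had a single peak and Ihh had none. The Shh peak was an alphaKO peak at chr5:28422859-28423275, 33.8 kb outside the gene, with a fold of 24.7 that ranked 4172 in the list. Rbm33 was the nearer gene, 3.82 kb from this summit. The WT summit nearest to it was 208 kb away, a peak with a fold of 18.4 that lay 164 kb from Shh on the other side. Shh is known for enhancers that act over very long distances, so a window of 50 kb holds a small part of its regulatory region. The nearest peaks to Ihh lay 76.8 kb from the gene in both lists, with a fold of 55.4 in alphaKO and 6.71 in WT.

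Ptch1, the receptor and a target of the pathway, carried 3 weak peaks in each list, all of them paired. Inside the gene, the peak nearest the listed start had a fold of 4.46 (pileup, the coverage at the summit, of 31) in alphaKO and 6.09 (pileup of 54) in WT. This was 1 of the 2 paired sites with the lower fold in alphaKO. Just outside the other end of the gene, 3.76 kb away, the folds were 6.81 in alphaKO and 5.80 in WT. The remaining site lay in the neighbour Fancc, with a fold of 8.22 in alphaKO and 3.87 in WT, and its summits were 294 bp apart, the widest gap among the 17 paired sites. All 3 Ptch1 peaks were below the median fold of their list in both genotypes.

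Hhip, a membrane protein that captures Hedgehog ligands, had the strongest of the 25 alphaKO peaks, at a site far outside the gene. In alphaKO the peak at chr8:79919184-79921081 had a fold of 251, a pileup of 1668 and a −log10 q of 3398, and it ranked 8 of the 14593 peaks. In WT the peak at chr8:79919352-79920915 had a fold of 11.5, a pileup of 59 and a −log10 q of 42.8, and it ranked 3589 of the 10616 peaks. The summits were 39 bp apart and lay 46.0 kb beyond the end of the gene, 138 kb from its listed start, and no other protein-coding gene reached into the Hhip window.

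The Hhip site was wide in both lists. It measured 1898 bp in alphaKO, where the list held 4 peaks at least as wide and had a median width of 401 bp. It measured 1564 bp in WT, where the list held 33 peaks at least as wide and had a median width of 385 bp. Counting only the 7054 paired sites, so that both ranks have the same base, the site ranked 8 in alphaKO and 3514 in WT. Of all paired sites, 128, the Hhip site included, had a WT rank below the alphaKO rank by at least as many places. Among the 100 paired sites with the highest alphaKO folds, 16, the Hhip site included, stood as low or lower in the WT ranking. The median WT rank of those 100 sites was 980. With 1 library per genotype, a difference between genotypes and one between libraries cannot be told apart.

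The region around the Hhip site was sparse in both lists. The next peaks outside the window lay 458 kb from the gene in alphaKO, with a fold of 13.3, and 327 kb away in WT, with a fold of 2.49. Inside Hhip, alphaKO had a peak with a fold of 9.20, 51.0 kb from the listed start, whose nearest WT summit was the distant site itself, 87.1 kb away. As the distant summits lay close to the limit of 50 kb, the window decides whether they count: with 10 kb of flank they drop out. The next summits just inside the limit were those 42.1 kb from Gli3 and 40.5 kb from Gli1, and the nearest just outside it was a WT peak 58.3 kb from Sufu with a fold of 2.36.

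**Figure D3:**
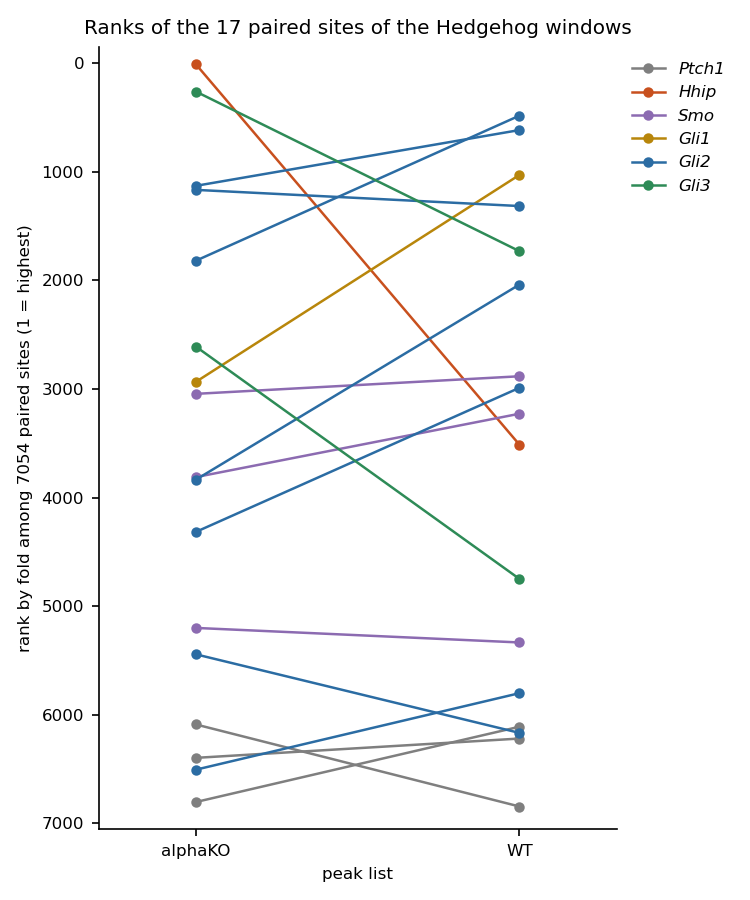
Rank by fold of each of the 17 paired sites at Hedgehog genes among all 7054 paired sites, with alphaKO left and WT right and 1 at the top, and a line for each site coloured by gene. The Hhip line runs between rank 8 in alphaKO and 3514 in WT, both Gli3 sites stand higher in alphaKO, and the Gli1 site and 5 of the 7 Gli2 sites stand higher in WT.

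Smo, the transducer, had the same 3 sites in both lists, all outside the gene body. Before its listed start, the farther site was 8.71 kb away in alphaKO and 8.70 kb in WT, and the nearer site 5.50 kb away in alphaKO and 5.51 kb in WT. At the farther site the fold was 24.2 in alphaKO and 13.3 in WT, and at the nearer site it was 12.1 in alphaKO and 7.72 in WT. The site beyond the other end, inside the neighbour Ahcyl2, had a fold of 19.4 in alphaKO and 12.3 in WT. Summits of the 3 sites differed by 3 to 9 bp between the lists. For the farther upstream site Tspan33 was the nearer gene, so Smo was the nearest gene for 1 of the 3 sites.

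Sufu, which restrains the Gli proteins, had peaks in both lists but no site in common. The alphaKO list had a peak 5.995 kb before the listed start, inside the neighbour Actr1a, with a fold of 10.9, and a peak inside Sufu, 51.4 kb from the start, with a fold of 6.03. The WT list had a peak with a fold of 4.03, 14.1 kb beyond the end of the gene and inside Trim8, which was the only WT peak at Hedgehog genes without an alphaKO partner. All 3 were below the median fold of their list, and the WT peak was 54.5 kb from the nearest alphaKO summit.

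Gli1, a transcription factor and the usual readout of pathway activity, had a single paired site at the border of its window. The peak at chr10:127289059-127289949 in alphaKO had a fold of 25.2, and the peak at chr10:127288658-127289614 in WT had a fold of 23.6. They met the Mbd6 promoter shown above, with summits 0.361 kb (alphaKO) and 0.372 kb (WT) from the Mbd6 start and 40.5 kb from Gli1, in a window with 8 other protein-coding genes. Among the paired sites this one ranked 2935 in alphaKO and 1028 in WT. No peak of either list lay inside Gli1.

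Gli2, the main activator among the Gli proteins, held the most peaks, 9 in alphaKO and 7 in WT, and all 7 WT peaks had an alphaKO partner. Of all protein-coding genes, 0.448% had at least as many alphaKO peaks and 1.09% at least as many WT peaks. Gli2 is long, at 220 kb. Of the 990 genes over 200 kb, 5.96% had at least as many alphaKO peaks and 4.44% at least as many WT peaks. No other protein-coding gene reached into its window.

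The strongest Gli2 sites lay toward the far end of the gene, within a stretch of 47.7 kb. Counted from the listed start, the site at 214 kb had a fold of 36.1 in alphaKO and 32.6 in WT. The site at 180 kb had a fold of 46.8 in alphaKO and 29.8 in WT. The site at 166 kb had a fold of 46.1 in alphaKO and 20.9 in WT. These 3 WT peaks ranked 483, 616 and 1320 of 10616, and the alphaKO peaks 2339, 1422 and 1473 of 14593. The strongest site of the gene was therefore a different one in each list.

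A tighter group of 3 paired Gli2 sites lay nearer the start, with outer summits 4.46 kb apart in alphaKO and 4.48 kb apart in WT. At 42.8 kb from the start the fold was 6.17 in alphaKO and 6.76 in WT, the other paired site with the lower fold in alphaKO. At 40.2 kb the fold was 11.0 in alphaKO and 5.97 in WT. At 38.3 kb in alphaKO and 38.4 kb in WT the fold was 16.6 in alphaKO and 13.0 in WT. Before the start, a paired site 32.0 kb away had a fold of 19.2 in alphaKO and 16.6 in WT. The alphaKO list alone had a peak 11.8 kb before the start with a fold of 10.3, and a peak beyond the end of the gene with a fold of 3.45, the weakest of the 25.

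Gli3, the main repressor among the Gli proteins, had 4 alphaKO and 2 WT peaks in a window of 366 kb. Of the 990 genes over 200 kb, 27.5% had at least as many alphaKO peaks and 34.7% at least as many WT peaks. The strongest, inside the gene 47.3 kb from its listed start, had a fold of 85.8 in alphaKO, ranking 329 in the list, and 18.2 in WT, ranking 1741. Its summits were 1 bp apart between the lists. A site 42.1 kb before the start had a fold of 27.7 in alphaKO and 8.80 in WT. Both sites stood higher among the paired sites in alphaKO, at 260 and 2609, than in WT, at 1731 and 4750. The alphaKO list alone had a peak 17.2 kb into the gene with a fold of 25.7 and a peak 49.6 kb into it with a fold of 9.63, which was 2.28 kb from the strongest site. No peak lay in the remaining length of the gene in either list.

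In all, 8 alphaKO peaks at Hedgehog genes had no WT partner, with 2 each at Sufu, Gli2 and Gli3 and 1 each at Shh and Hhip. Their median fold was 9.96, and that of the 17 with a partner was 19.4, beside medians of 12.8 and 21.0 over the alphaKO list. The unpaired peaks at Shh and Gli3, with folds of 24.7 and 25.7, stood above the median of the list, and the other 6 stood below it. Summits lay inside a Hedgehog gene for 12 of the 25 alphaKO peaks and 8 of the 18 WT peaks. Most of these were in the long genes Gli2 (6 in alphaKO and 6 in WT) and Gli3 (3 in alphaKO and 1 in WT). Shares inside a gene, or by nearest gene, were not computed for the windows of all genes. The Hedgehog gene was the nearest protein-coding gene for 19 of the 25 alphaKO peaks and 13 of the 18 WT peaks, and the remaining peaks belong as well or better to a neighbour by distance.

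Other genes of the pathway were read in the same windows from a list of 27 genes. In alphaKO 17 of the 27 had a peak (62.96%, with 55.1% of all protein-coding genes), and in WT 14 of the 27 (51.9%, with 47.1% of all). Peaks of both lists lay around 12 of them (44.4%, with 41.0% of all). With lists of equal length, 14 of the 27 had a peak in each genotype. The median fold of the strongest peak was 22.6 in alphaKO and 10.6 in WT, and over all genes with a peak it was 23.5 in alphaKO and 11.6 in WT, so these levels were near those of genes at large. At 10 of the 12 genes the strongest peaks of the lists were the same site, and at Dhh and Hhat they were different sites. The matching share over all genes with peaks in both lists was not computed, so nothing is read from this count.

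By role, the counts were as follows, with no test between roles. The shares over all protein-coding genes were 55.1% in alphaKO, 47.1% in WT and 41.0% in both lists. All 4 genes of the group for processing and release of ligands had a peak in each list, with Dhh, itself a ligand gene, counted there. Among them was Hhat, which attaches the lipid that ligands need. Its strongest alphaKO peak, 35.8 kb outside the gene, had a fold of 48.1 and no WT partner, and its strongest WT peak, at another site 21.1 kb outside the gene, had a fold of 18.1. All 4 co-receptor genes had a peak in alphaKO and 3 of the 4 in WT. Cdon, a co-receptor, had its strongest peak 42.4 kb outside the gene and nearer to Ddx25 (62.1 in alphaKO and 17.2 in WT), and Gas1, another co-receptor, had one in alphaKO alone (16.4). Of the 11 genes of signal transduction, alphaKO peaks marked 4 (36.4%), WT peaks marked 4 (36.4%), and 2 genes had peaks in both lists (18.2%). Gpr161, a receptor that restrains the pathway at the primary cilium, had a peak inside the gene (54.7 in alphaKO and 15.4 in WT). Ift88, a gene of ciliary transport, had a peak in alphaKO alone (12.1), 28.7 kb outside the gene and nearer to Eef1akmt1. The kinase genes Csnk1a1 and Prkaca had peaks in WT alone. The strongest at Csnk1a1 (5.61) lay 47.8 kb outside the gene, and the peak at Prkaca (2.93) lay 0.897 kb outside and nearer to Samd1. Each of these folds was below the median of its list.

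Of 8 genes known as targets of the pathway in various tissues, 5 had a peak in alphaKO (62.5%) and 3 in WT (37.5%). Over all protein-coding genes the shares were 55.1% in alphaKO and 47.1% in WT, and nothing is read from these few genes. Foxm1, a cell-cycle transcription factor, had its strongest peak 23.8 kb outside the gene and nearer to Tulp3 (67.4 in alphaKO and 21.2 in WT). Bcl2, an inhibitor of apoptosis, had its strongest peak inside the gene (53.1 in alphaKO and 17.8 in WT). Ccnd1, which encodes cyclin D1, had one 31.7 kb outside (49.9 in alphaKO and 44.1 in WT). Sox9, a transcription factor of the hair follicle, had a peak in alphaKO alone (7.45). Within 10 kb of the gene, 9 of the 27 genes had a peak in alphaKO and 11 in WT, beside 30.6% of all protein-coding genes in alphaKO and 26.4% in WT.

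**Figure D4:**
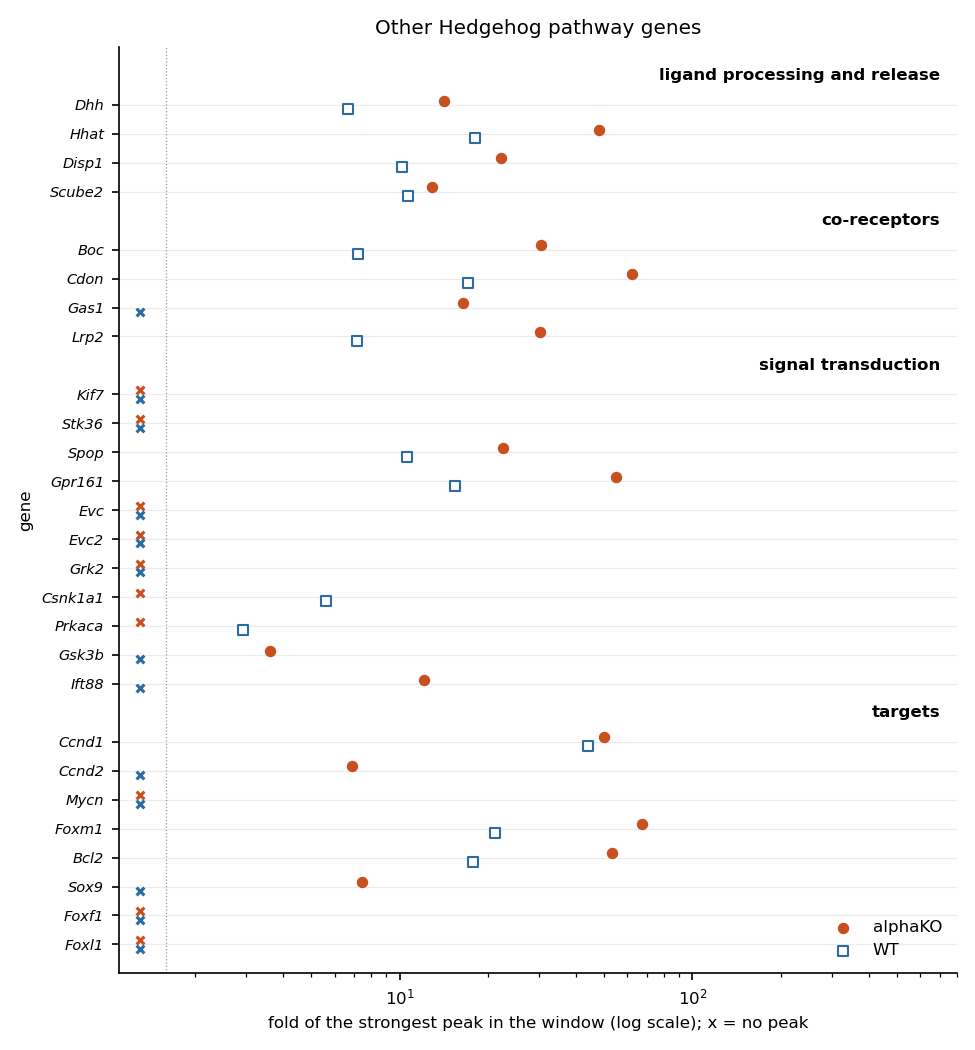
Fold of the strongest peak (log axis) in the window of each of 27 other Hedgehog pathway genes, grouped by role, with alphaKO as filled circles and WT as open squares, and crosses at the left where a list has no peak. The alphaKO fold is the higher for each of the 12 genes with peaks in both lists, at 2 of which the strongest peaks are different sites. Over all 7054 paired sites the alphaKO fold is the higher at 83.7%, and the share over all genes was not computed. A peak is found in neither list for 8 genes.

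The labelled tissue was read against the same windows at marker genes. All 5 basal keratinocyte genes, Krt5, Krt14, Trp63, Itga6 and Itgb4, had peaks in both lists, as had 41.0% of all protein-coding genes. Of 3 suprabasal markers, 2 had a peak in alphaKO and 3 in WT. Krt1 had one in WT alone, a weak peak (2.93) that lay 5.01 kb outside the gene and nearer to Krt77. Of 3 hair follicle markers, 3 had a peak in alphaKO and 2 in WT, with Sox9 in alphaKO alone. Of 13 markers of melanocytes, immune cells, dermal fibroblasts and endothelial cells, 9 had a peak in alphaKO (69.2%) and 5 in WT (38.5%), beside 55.1% of all protein-coding genes in alphaKO and 47.1% in WT, and nothing is read from these few genes. Peaks do not measure transcripts, so neither count tells which cells were present, and in bulk chromatin fewer cells of a type and less binding per cell cannot be told apart.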

How the data were processed

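Each ChIP library was analysed from the peak list deposited by the authors. The submitters' processing notes name the aligner Bowtie2, the peak caller MACS2 (version 2.1.1.20160309) and the mm10 build. Caller options, control library and handling of duplicates were not given in the sources used here. Every deposited peak has, per the file headers, a start, end and summit, a pileup (the coverage signal there), a fold enrichment (ratio), and a p-value and q-value as −log10. The lists carry no read totals, so the depth is unknown. Local background was taken as (pileup + 1)/fold − 1.

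Genes came from RefSeq GRCm38.p6, with 21887 protein-coding nuclear genes. That table has no exons, so exonic and intronic positions were not analysed here. Every peak of the 9 genes was reported. A gene of the wider pathway list is not reported here. Of the 27 others, those named had peaks in both lists with the 6 highest alphaKO folds, or in a single list with up to 3 highest folds. Members and lists were chosen with earlier results of these data known. With 1 library per genotype no test was made. Window and overlap code was tested on simulated data. Tables were handled with pandas 2.3.3 and NumPy 2.4.6, intervals came from SciPy 1.17.1, and figures from matplotlib 3.10.9, all under Python 3.11.15.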

Additional observations from a re-analysis of the deposited data

How the results depend on the processing

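The counts of peaks and genes, shares with a partner, median folds and densities were recomputed at −log10 q of at least 5 and 10, at a fold of at least 5, with equal list lengths, without peaks of local background over 50, with flanks of 10 kb and 100 kb, with peaks kept where the Hedgehog gene was the nearest gene, and with 3 other definitions of a partner. Of 98 recomputed values, 93 changed little (a share or median inside its 95% interval, a count by a factor of at most 1.5) and 5 changed more. Part of the 93 could not change. No peak at Hedgehog genes had a local background over 50, so that setting left their values as they were. Equal list lengths shortened the alphaKO list alone, so the WT values other than the share with a partner were fixed. The count of 93 is therefore no measure of stability. It is also per genotype and does not speak for the order of the genotypes. With equal list lengths that order turned or was lost for all results but the median fold: 17 alphaKO and 18 WT peaks (25 alphaKO and 18 WT in the main setting), 1.01 alphaKO and 1.07 WT peaks per 100 kb (1.48 alphaKO and 1.07 WT), 7 Hedgehog genes each (8 in alphaKO and 7 in WT), 14 other pathway genes each (17 in alphaKO and 14 in WT, and 19 each with flanks of 100 kb), and a partner for 76.5% of alphaKO and 72.2% of WT peaks (68.0% in alphaKO and 94.4% in WT). The median folds kept their order with equal list lengths, at 24.7 in alphaKO and 11.9 in WT. With flanks of 10 kb the order of the median folds turned, at 12.1 in alphaKO and 12.6 in WT (16.6 in alphaKO and 11.9 in WT in the main setting). With flanks of 10 kb, 6 of the Hedgehog genes had an alphaKO peak where 8 had one with 50 kb, and 4 had a WT peak where 7 had one. Of the other pathway genes, 9 had an alphaKO peak where 17 had one, and 11 had a WT peak where 14 had one. The shares over all protein-coding genes with flanks of 10 kb were 30.6% in alphaKO and 26.4% in WT. Among WT peaks at Hedgehog genes, the share with an alphaKO partner was 94.4% in the main setting, 100% both with flanks of 10 kb and with peaks kept by nearest gene, and 72.2% with equal list lengths, where the alphaKO list was shortened. The smaller window and the shorter list remove peaks by construction. No paired analysis was possible because each genotype had 1 ChIP library. Peak lists without replicates limit all counts to these libraries.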
